A study of Homo sapiens with 48 samples.

Results

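The cholesterol and fatty acid synthesis pathways were followed through 33 genes of a deposited RNA-seq count table that holds 36843 genes. The members were chosen by symbol from a given list, and all 33 were found and passed the filter on low counts in each of the 3 cell lines. They fall into 18 enzymes of sterol synthesis, 8 enzymes of fatty acid synthesis and desaturation, and 7 regulators and sterol transport genes. The study measured RNA in 30 libraries of 3 established pancreatic ductal adenocarcinoma lines, in 10 groups of 3 libraries. ASPC1 and CFPAC1 each had a group labelled siZNF274, a siCTRL group, a group given azacitidine (AZA) at 5 µM and a DMSO vehicle group. Panc3.27 had a group that overexpressed ZNF274 (OE) and an empty vector group (CTRL). The ZNF274 product belongs to the KRAB zinc finger family and is known as a recruiter of the repressive histone mark H3K9me3, and azacitidine is a cytidine analogue that traps DNA methyltransferases. A CUT&RUN experiment in ASPC1 mapped H3K9me3 in cells carrying an inducible shZNF274 or shCTRL hairpin, all given doxycycline at 1 µg/ml for 9 days. Durations, culture media, siRNA sequences and the promoter that drove the overexpressed ZNF274 in the RNA-seq groups were not given in the labels used here. Each condition was measured in 1 or 2 lines, and the labels do not say that the 3 libraries of a group came from separate cultures, so p-values measure the spread between these libraries, which may be technical.

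The SREBP proteins encoded by SREBF1 and SREBF2 are transcription factors made as membrane precursors in the endoplasmic reticulum. When membrane cholesterol is low, SCAP escorts the precursors to the Golgi, where proteases release the active fragment, and when sterols are plentiful the INSIG proteins hold SCAP back. The SREBF2 product is known mainly for the sterol enzymes and the SREBF1 product mainly for the fatty acid enzymes, with overlap between them. INSIG1, SREBF1 and SREBF2 are also known targets of the pathway. Carcinoma cells of the pancreas use both uptake and synthesis to supply these lipids.

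Total counts lay between 31415743 and 43383141 per library. Levels are given in CPM, counts per 1e+06 of a library, after TMM scaling within a line, and differences as log2 fold changes fitted by edgeR, with a call at an adjusted p under 0.05 over all genes tested in that line. The RNA of ZNF274 itself did not fall under the siZNF274 label. It had 16.6, 19.2 and 22.4 CPM in the so labelled libraries of ASPC1, against 15.8, 16.3 and 20.6 CPM in siCTRL (log2 difference 0.15 ± 0.11 (SE; edgeR adjusted p = 0.305)), and 32.6, 34.4 and 31.5 CPM in those of CFPAC1, against 33.5, 33.95 and 35.7 CPM in siCTRL (log2 difference -0.067 ± 0.056 (SE; edgeR adjusted p = 0.423)). The label is therefore used below only as a name, and no direction can be tied to a loss of ZNF274 RNA. In Panc3.27 the gene had 133, 135 and 139 CPM with overexpression, against 47.4, 50.4 and 49.4 CPM with empty vector. ZNF274 RNA was called higher with azacitidine than with DMSO in ASPC1 (log2 difference 0.49 ± 0.11 (SE; edgeR adjusted p = 0.00317)) and CFPAC1 (0.16 ± 0.056 (SE; edgeR adjusted p = 0.0464)). It was also higher in siCTRL than in DMSO, by 0.35 ± 0.11 (SE; edgeR adjusted p = 0.0277) in ASPC1 and 0.27 ± 0.056 (SE; edgeR adjusted p = 0.00325) in CFPAC1. The ductal markers EPCAM, KRT8, KRT18 and KRT19 were detected at 222 CPM or more in every library, while KRT7 was as low as 1.42 CPM in ASPC1. The summed leukocyte, hepatocyte and adipocyte markers stayed at or below 5.99 CPM in every library, and the summed endothelial markers at or below 5.22 CPM in ASPC1 and CFPAC1. In Panc3.27 the endothelial sum was 30.3 to 58.3 CPM, nearly all of it VWF. The summed fibroblast markers were higher, at 55.3 to 159 CPM over all libraries. In ASPC1 that sum was nearly all LUM and in the other lines nearly all COL1A1, while DCN stayed at or below 0.373 CPM, PDGFRB at or below 0.733 CPM and COL3A1 at or below 4.25 CPM.

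Promoters of 29 of the 33 members were matched in the RefSeq table (build GRCh38.p14), all but those of ACAT2, FDFT1, SQLE and FASN. The sequences below run 5′ to 3′ over the 250 bases before the start and are printed for genes on which the results turn: the sterol enzymes MSMO1, MVK and HMGCS1, the desaturase SCD, and the regulators SREBF2, INSIG1 and SCAP. Capitals mark matches on either strand to TCACNCCA, the core of the sterol regulatory element that SREBP proteins bind, and to CCAAT, the box bound by the cofactor NF-Y. The 2 motifs share no fixed letters beyond CCA, and where matches overlap the capitals run on.
MSMO1, chr4:165327419-165327668, plus strand: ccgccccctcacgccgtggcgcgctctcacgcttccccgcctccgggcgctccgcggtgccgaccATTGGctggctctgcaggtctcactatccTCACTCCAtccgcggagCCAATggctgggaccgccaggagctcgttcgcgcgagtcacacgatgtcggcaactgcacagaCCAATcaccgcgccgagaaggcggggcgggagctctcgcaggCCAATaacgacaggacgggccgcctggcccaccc
MVK, chr12:109573544-109573793, plus strand: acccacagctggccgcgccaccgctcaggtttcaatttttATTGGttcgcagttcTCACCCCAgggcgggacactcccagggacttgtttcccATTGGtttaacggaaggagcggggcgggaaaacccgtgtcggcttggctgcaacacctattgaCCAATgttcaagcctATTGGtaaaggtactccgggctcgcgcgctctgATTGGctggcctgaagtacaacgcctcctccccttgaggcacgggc
HMGCS1, chr5:43313413-43313662, minus strand: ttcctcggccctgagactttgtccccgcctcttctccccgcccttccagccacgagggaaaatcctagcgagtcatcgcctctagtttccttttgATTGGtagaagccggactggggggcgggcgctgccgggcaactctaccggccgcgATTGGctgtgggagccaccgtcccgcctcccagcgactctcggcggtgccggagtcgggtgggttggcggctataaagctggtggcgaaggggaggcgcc
SCD, chr10:100346983-100347232, plus strand: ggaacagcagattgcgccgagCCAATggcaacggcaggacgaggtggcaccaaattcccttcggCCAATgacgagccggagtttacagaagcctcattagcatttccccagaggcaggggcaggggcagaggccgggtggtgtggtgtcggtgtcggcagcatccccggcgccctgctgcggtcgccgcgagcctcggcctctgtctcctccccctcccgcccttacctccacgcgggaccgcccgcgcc
SREBF2, chr22:41832855-41833104, plus strand: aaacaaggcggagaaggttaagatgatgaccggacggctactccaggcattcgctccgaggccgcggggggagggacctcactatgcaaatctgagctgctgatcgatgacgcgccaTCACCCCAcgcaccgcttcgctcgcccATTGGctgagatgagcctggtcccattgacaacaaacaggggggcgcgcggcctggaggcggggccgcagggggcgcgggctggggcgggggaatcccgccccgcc
INSIG1, chr7:155297628-155297877, plus strand: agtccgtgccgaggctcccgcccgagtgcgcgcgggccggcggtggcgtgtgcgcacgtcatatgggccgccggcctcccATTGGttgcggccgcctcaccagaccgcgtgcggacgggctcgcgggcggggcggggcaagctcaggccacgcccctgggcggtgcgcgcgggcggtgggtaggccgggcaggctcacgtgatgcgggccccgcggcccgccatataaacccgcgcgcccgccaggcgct
SCAP, chr3:47475942-47476191, minus strand: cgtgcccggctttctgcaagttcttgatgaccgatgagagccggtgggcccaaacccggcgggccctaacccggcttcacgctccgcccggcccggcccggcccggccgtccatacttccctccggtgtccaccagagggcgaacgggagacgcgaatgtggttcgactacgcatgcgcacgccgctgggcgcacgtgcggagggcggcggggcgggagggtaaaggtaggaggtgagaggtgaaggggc
A TCACNCCA match was present in 3 of the 29 member genes (10.3%), namely MSMO1, MVK and SREBF2, against 3.92% of all 27305 genes with a promoter of the same length. CCAAT was present in 21 of the 29 (72.4%), against 37.0% of all genes. By branch it was found in 13 of 15 sterol enzymes, 4 of 7 fatty acid enzymes and 4 of 7 regulators. GGGCGG, the box bound by Sp1, was present in 28 of 29 members (96.6%), against 46.2% of all genes, and the E-box CACGTG in 3 of 29 (10.3%), against 7.73%. The printed SCAP window held neither TCACNCCA nor CCAAT, but its start lies 1185 bases from that of the counted gene, and the MVK start 539 bases. Of the 29 members, 9 had several starts, and a gene was counted when any of its windows held a match. The HMGCS1 window that is not printed held no CCAAT. Matches are letters in a window and say nothing of binding in these cells.

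In ASPC1, siCTRL was the control for the libraries labelled siZNF274, and the question was how sterol and fatty acid genes differ from it. The sterol branch was higher nearly throughout: 15 of 18 enzymes rose and none fell, with a median log2 difference of 0.58. In the fatty acid branch 4 of 8 rose and none fell, with a median of 0.20. Among the 7 regulators INSIG1, STARD4 and SREBF2 rose, SCAP fell, and the median was -0.035. In all, 22 of 33 members rose and 1 fell, where edgeR called 21.5% of 16186 genes higher and 24.2% lower, 45.7% in either direction. The median over all genes tested was -0.00020. In these bulk libraries fewer expressing cells and less RNA per cell cannot be told apart.

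HMGCS1 (ENSG00000112972.15, chromosome 5, 43287470 to 43313512, hg38), the synthase that makes HMG-CoA at the head of the mevalonate pathway, had 291, 299 and 294 CPM in ASPC1 libraries labelled siZNF274, against 159, 159.9 and 139 CPM in siCTRL. The 3 siZNF274-labelled libraries lay well above all 3 siCTRL libraries and close to each other, and the log2 difference was 0.95 ± 0.074 (SE; edgeR adjusted p = 5.11e-08). HSD17B7 (ENSG00000132196.16, chromosome 1, 162790702 to 162812823), a ketoreductase of late sterol synthesis, had the largest rise of the branch, with 19.3, 17.4 and 17.4 CPM in the siZNF274-labelled libraries, against 10.3, 9.95 and 7.50 CPM in siCTRL. Its groups did not overlap, and the log2 difference was 0.96 ± 0.12 (SE; edgeR adjusted p = 1.01e-05). The other upstream enzymes that rose ran from ACAT2, the thiolase that joins acetyl-CoA units (0.70 on the log2 scale), through MVK (0.85), MVD (0.78) and IDI1 (0.89) to FDPS, the farnesyl diphosphate synthase (0.36). Of the enzymes that act on squalene and later sterols, SQLE, the squalene epoxidase, rose by 0.77 and MSMO1, a sterol methyl oxidase, by 0.91, while FDFT1, the squalene synthase, had the smallest called rise (0.26). No call was made for PMVK, the phosphomevalonate kinase (0.032, edgeR adjusted p = 0.852), TM7SF2, a sterol reductase (0.12, edgeR adjusted p = 0.295), or EBP, a sterol isomerase (0.078, edgeR adjusted p = 0.439).

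On the fatty acid side the rise in ASPC1 was uneven. ELOVL6 (ENSG00000170522.10, chromosome 4, 110045846 to 110199199), the elongase that extends palmitate, had 156, 169 and 167 CPM in libraries labelled siZNF274, against 93.02, 92.8 and 85.8 CPM in siCTRL, a log2 difference of 0.86 ± 0.056 (SE; edgeR adjusted p = 6.49e-09). FASN (ENSG00000169710.9, chromosome 17, 82078338 to 82098294), the fatty acid synthase, had 1041, 941 and 948 CPM in the siZNF274-labelled libraries and 628, 776 and 654 CPM in siCTRL, with a log2 difference of 0.51 ± 0.077 (SE; edgeR adjusted p = 6.15e-05). SCD (ENSG00000099194.6, chromosome 10, 100347233 to 100364826), the stearoyl-CoA desaturase, had 5210.2, 5046 and 5149 CPM in the siZNF274-labelled libraries and 4092, 4042 and 3743 CPM in siCTRL, and its log2 difference was 0.38 ± 0.058 (SE; edgeR adjusted p = 7.75e-05). None of these 3 genes had overlapping groups. FADS2, a desaturase of polyunsaturated fatty acids, was the fourth that rose (0.28). No call was made for ACLY, the ATP citrate lyase (0.12), ACSS2, the acetyl-CoA synthetase (0.028), ACACA, the acetyl-CoA carboxylase (0.074), or the desaturase FADS1 (-0.065). Their edgeR adjusted p were 0.0633, 0.603, 0.343 and 0.646 in that order. ACLY was near the threshold, and was called higher under upper quartile scaling (edgeR adjusted p = 0.0124) and with the replicate block (edgeR adjusted p = 0.0313).

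Of the regulators in ASPC1, INSIG1 (ENSG00000186480.13, chromosome 7, 155297776 to 155310235), which holds SCAP in the endoplasmic reticulum, had 184, 167 and 169 CPM in libraries labelled siZNF274, against 95.9, 104 and 79.5 CPM in siCTRL. Its groups were far apart, with a log2 difference of 0.90 ± 0.10 (SE; edgeR adjusted p = 4.11e-06). SREBF2 (ENSG00000198911.12, chromosome 22, 41833079 to 41907307) had 405, 405 and 410.0 CPM in the siZNF274-labelled libraries and 330.4, 371 and 352 CPM in siCTRL, a smaller but not overlapping difference of 0.21 ± 0.044 (SE; edgeR adjusted p = 9.88e-04) on the log2 scale. SREBF1 (ENSG00000072310.18, chromosome 17, 17810399 to 17837002) had 359, 337 and 346 CPM in the siZNF274-labelled libraries and 340.0, 399.6 and 429 CPM in siCTRL. The siCTRL libraries of SREBF1 were spread widely and overlapped the others, and its log2 difference of -0.16 ± 0.071 (SE; edgeR adjusted p = 0.0713) was not called. SCAP (ENSG00000114650.20, chromosome 3, 47413681 to 47477126), the escort of the precursors, went the other way, with 34.4, 32.3 and 31.6 CPM in the siZNF274-labelled libraries, against 48.2, 54.3 and 52.6 CPM in siCTRL. Every siZNF274-labelled library was below every siCTRL library, and the log2 difference was -0.66 ± 0.057 (SE; edgeR adjusted p = 1.79e-07). STARD4, a cytosolic sterol carrier, rose by 0.57, while INSIG2 (-0.035) and the ubiquitin ligase gene MYLIP (-0.076) received no call. No called member lost its call when any single library was left out. SREBF1 was called lower without siCTRL replicate 1 (edgeR adjusted p = 0.00179), with no filter on low counts (edgeR adjusted p = 0.00946) and with the replicate block (edgeR adjusted p = 0.0353), and without siCTRL replicate 2, TM7SF2 (edgeR adjusted p = 0.0153) and ACLY (edgeR adjusted p = 0.00728) were called higher. The ductal markers moved with the group: 4 of 5 were lower and KRT7 was higher, and their sum was 6766 to 7466 CPM in libraries labelled siZNF274 and 9526 to 10791 CPM in siCTRL. Of the fibroblast markers LUM was called higher, with a summed level of 135 to 146 CPM in libraries labelled siZNF274 and 116 to 128 CPM in siCTRL. Of the endothelial markers VWF was called higher, with a sum of 1.08 to 1.37 CPM in libraries labelled siZNF274 and 0.550 to 0.884 CPM in siCTRL. The part of these markers in the result was not tested.

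**Figure D1:**
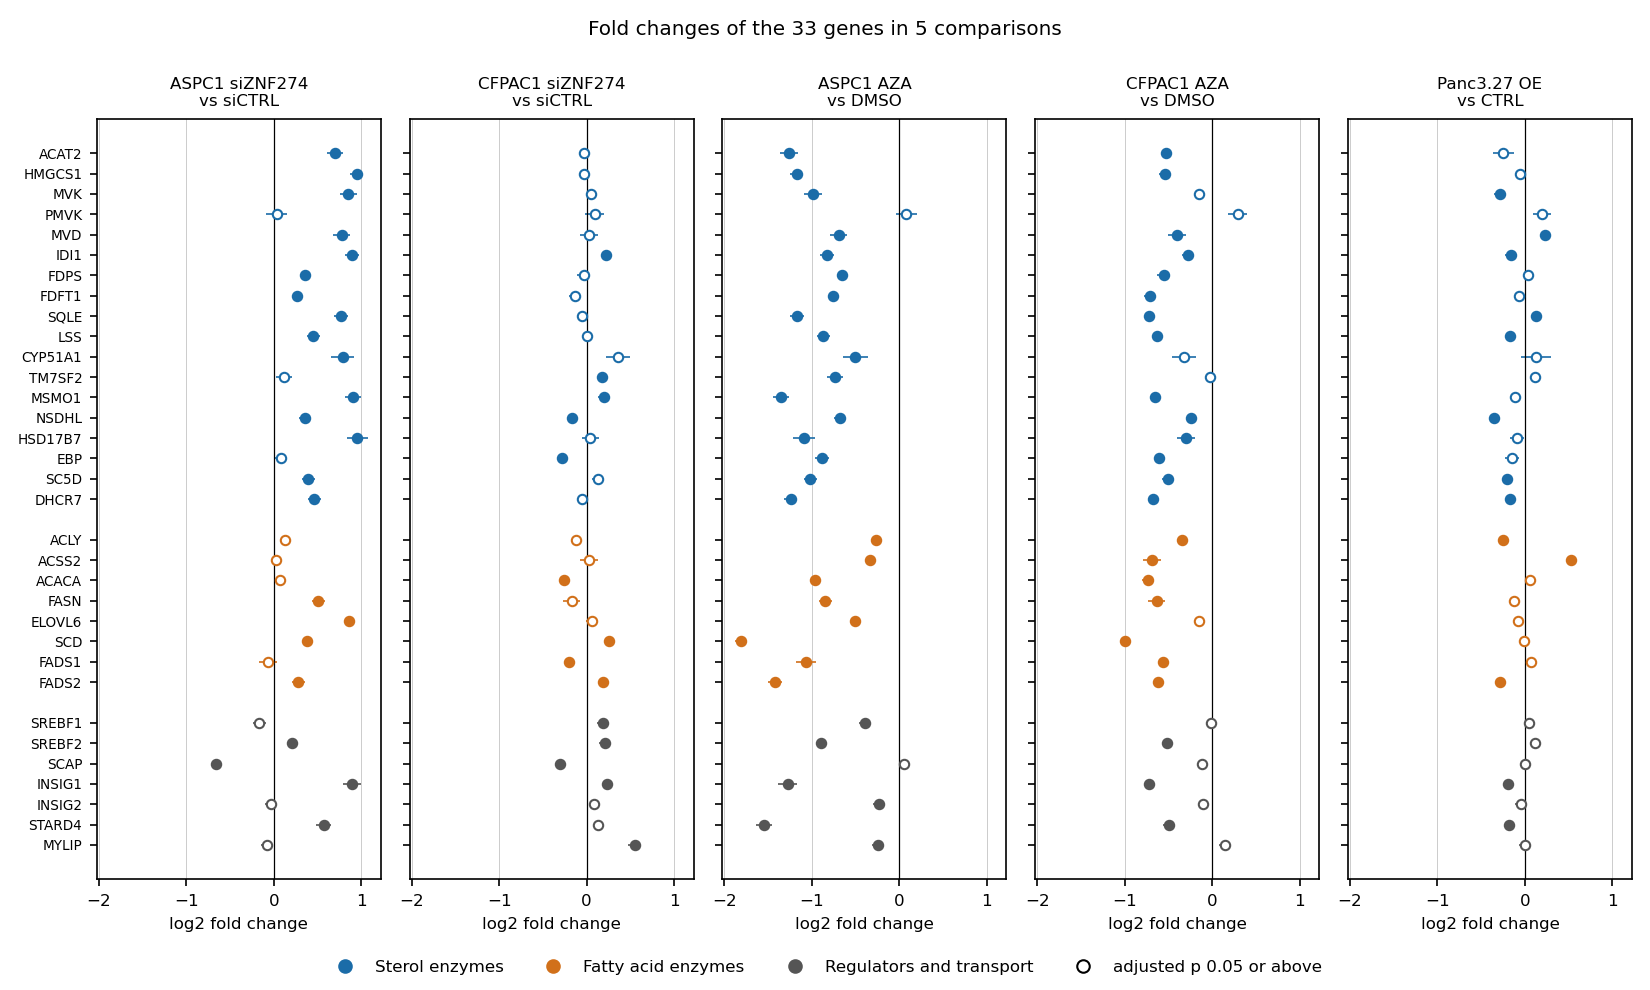
Fitted log2 fold change of each of the 33 genes (vertical axis, grouped by branch and coloured by it) in the 5 treatment comparisons, 1 panel each, with the standard error as a bar. Filled points had an edgeR adjusted p under 0.05 and open points did not; 22 members rose and 1 fell in the ASPC1 siZNF274 panel, 31 and 24 fell in the panels for azacitidine in ASPC1 and CFPAC1, and the CFPAC1 siZNF274 and Panc3.27 panels hold few large changes.

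In CFPAC1 the same comparison gave small differences in both directions. Of 18 sterol enzymes 3 rose and 2 fell, of 8 fatty acid enzymes 2 rose and 2 fell, and of 7 regulators 4 rose and 1 fell. The medians were 0.017 in the sterol branch, -0.046 in the fatty acid branch and 0.19 among the regulators, against -0.0062 over all 18103 genes tested. In all, 9 members rose and 5 fell, 14 of 33, where edgeR called 11.6% of all genes higher and 13.2% lower, 24.8% in either direction. Without siCTRL replicate 1 the count of rises was 4, and without siZNF274 replicate 3 it was 5, while the count of falls was 3 without siZNF274 replicate 1 or 2. The count in both directions fell to 9 without siZNF274 replicate 1, 2 or 3, and to 10 when the 2 groups were fitted alone.

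HMGCS1 in CFPAC1 had 350.4, 335 and 332 CPM in the libraries labelled siZNF274 and 327, 338 and 371 CPM in siCTRL, with overlapping groups and a log2 difference of -0.025 ± 0.058 (SE; edgeR adjusted p = 0.801). EBP had the largest called change of the sterol branch and went down, with 41.6, 40.2 and 41.2 CPM in the siZNF274-labelled libraries, against 51.8, 49.9 and 47.4 CPM in siCTRL, a log2 difference of -0.28 ± 0.057 (SE; edgeR adjusted p = 0.00220). NSDHL, a dehydrogenase of sterol synthesis, also fell, with 30.9, 31.2 and 30.7 CPM in the siZNF274-labelled libraries and 34.98, 35.6 and 33.9 CPM in siCTRL (log2 difference -0.17 ± 0.052 (SE; edgeR adjusted p = 0.0232)). The groups of EBP and of NSDHL did not overlap, although the NSDHL difference was small. IDI1 (0.23), MSMO1 (0.19) and TM7SF2 (0.18) rose. The call of each ended without single libraries: IDI1 without siCTRL replicate 1 or 2 or siZNF274 replicate 1 (edgeR adjusted p 0.0615 to 0.0741), TM7SF2 without siCTRL replicate 1 or siZNF274 replicate 1 or 3 (edgeR adjusted p 0.0567 to 0.0771), and MSMO1 without siCTRL replicate 1 or 2 or any siZNF274 replicate (edgeR adjusted p 0.0522 to 0.106). The NSDHL call likewise ended without siCTRL replicate 2 or any siZNF274 replicate (edgeR adjusted p 0.0673 to 0.101). CYP51A1 had a larger difference than EBP, upwards (0.36), that was not called (edgeR adjusted p = 0.0610). It was called higher without siCTRL replicate 3 (edgeR adjusted p = 0.00509), with no filter on low counts (edgeR adjusted p = 0.00484), with the replicate block (edgeR adjusted p = 0.0397) and under DESeq2 (DESeq2 adjusted p = 0.045).

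Among fatty acid genes of CFPAC1, SCD had 3833, 3833 and 3935 CPM in libraries labelled siZNF274, against 3056, 3209 and 3440.0 CPM in siCTRL, and rose by 0.26 ± 0.052 (SE; edgeR adjusted p = 0.00191) on the log2 scale. FASN had 1440.2, 1613 and 1641 CPM in the siZNF274-labelled libraries and 1462, 1807 and 2012 CPM in siCTRL, with a wide siCTRL spread and a log2 difference of -0.17 ± 0.096 (SE; edgeR adjusted p = 0.219). SCD was therefore the only one of this pair whose groups did not overlap. FADS2 rose (0.19), while FADS1 (-0.20) and ACACA (-0.25) fell. The ACACA call ended without siCTRL replicate 3 or siZNF274 replicate 1 or 2 (edgeR adjusted p 0.0550 to 0.0601), and without siCTRL replicate 1 FASN was called lower (edgeR adjusted p = 0.0172).

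MYLIP was the regulator that changed most in CFPAC1, with 24.6, 23.7 and 25.4 CPM in libraries labelled siZNF274, against 16.3, 17.7 and 16.4 CPM in siCTRL. Its groups lay apart, with a log2 difference of 0.55 ± 0.072 (SE; edgeR adjusted p = 4.53e-05). INSIG1 had 490.0, 450.3 and 447 CPM in the siZNF274-labelled libraries and 374, 386 and 420.3 CPM in siCTRL, a log2 difference of 0.23 ± 0.056 (SE; edgeR adjusted p = 0.00608). SREBF2 had 338, 369 and 364 CPM in the siZNF274-labelled libraries and 286, 320.3 and 324 CPM in siCTRL, with a log2 difference of 0.20 ± 0.058 (SE; edgeR adjusted p = 0.0158). SREBF1 had 177, 197 and 189 CPM in the siZNF274-labelled libraries and 149.9, 172 and 174 CPM in siCTRL (log2 difference 0.19 ± 0.061 (SE; edgeR adjusted p = 0.0357)). In each of these 3 regulator genes the lowest siZNF274-labelled library was above the highest siCTRL library. SCAP was again lower, with 44.9, 47.3 and 48.1 CPM in the siZNF274-labelled libraries and 60.8, 59.4 and 52.3 CPM in siCTRL, and a log2 difference of -0.30 ± 0.061 (SE; edgeR adjusted p = 0.00194). The SREBF1 call ended without siCTRL replicate 1 or siZNF274 replicate 2 or 3 (edgeR adjusted p 0.0921 to 0.137), and so did that of SREBF2 (edgeR adjusted p 0.0592 to 0.0604). All 5 ductal markers were lower in CFPAC1, and their sum was 7245 to 7557 CPM in libraries labelled siZNF274 and 8139 to 9288 CPM in siCTRL. The leukocyte marker CD14 was called higher, and the leukocyte sum was 3.36 to 5.23 CPM in libraries labelled siZNF274 and 2.73 to 3.17 CPM in siCTRL. No fibroblast marker was called, and that sum spread over 84.5 to 159 CPM in libraries labelled siZNF274 and 99.1 to 145 CPM in siCTRL. The part of these markers in the result was not tested.

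The size of the siZNF274-labelled difference was then compared between the lines in 1 fit of 24 libraries. It was higher in ASPC1 than in CFPAC1 for 20 members and lower for 3, where edgeR called 7.37% of 19094 genes higher and 9.28% lower, 16.6% in either direction. The higher ones were 14 of 18 sterol enzymes, 4 of 8 fatty acid enzymes and the regulators INSIG1 and STARD4, and the lower ones were the regulators SREBF1, SCAP and MYLIP. The ASPC1 effect minus the CFPAC1 effect was 0.95 ± 0.098 (SE; edgeR adjusted p = 7.22e-08) for HMGCS1, 0.90 ± 0.16 (SE; edgeR adjusted p = 2.26e-04) for HSD17B7 and 0.78 ± 0.090 (SE; edgeR adjusted p = 4.29e-07) for ELOVL6. For SCD it was 0.10 ± 0.080 (SE; edgeR adjusted p = 0.461), and for FADS2 0.074 ± 0.093 (SE; edgeR adjusted p = 0.670), so the rise of these desaturase genes was not shown to differ between the lines. Of the 22 members that rose in ASPC1 and the 9 that rose in CFPAC1, 6 were in both lists: IDI1, MSMO1, SCD, FADS2, INSIG1 and SREBF2. As 22 of 33 members rose in ASPC1, most of any 9 members would be in both lists. The 6 are therefore not read as a shared response, and the share of all genes called higher in both lines was not counted. SCAP was called lower in both lines, and NSDHL was called higher in ASPC1 and lower in CFPAC1, with a tested difference of 0.51 ± 0.086 (SE; edgeR adjusted p = 9.90e-05). Of the 3 lower ones, the SREBF1 difference between lines (-0.37) lost its call without ASPC1 siCTRL replicate 3 (edgeR adjusted p = 0.0503). The calls for ACLY (0.23; edgeR adjusted p 0.0569 to 0.0806 without 1 of 5 single libraries: ASPC1 siCTRL replicate 1 or 3, ASPC1 siZNF274 replicate 1, CFPAC1 siCTRL replicate 2 or CFPAC1 siZNF274 replicate 2) and ACACA (0.31; edgeR adjusted p 0.0562 to 0.0748 without replicate 3 of siCTRL in either line or CFPAC1 siZNF274 replicate 1) also ended.

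**Figure D2:**
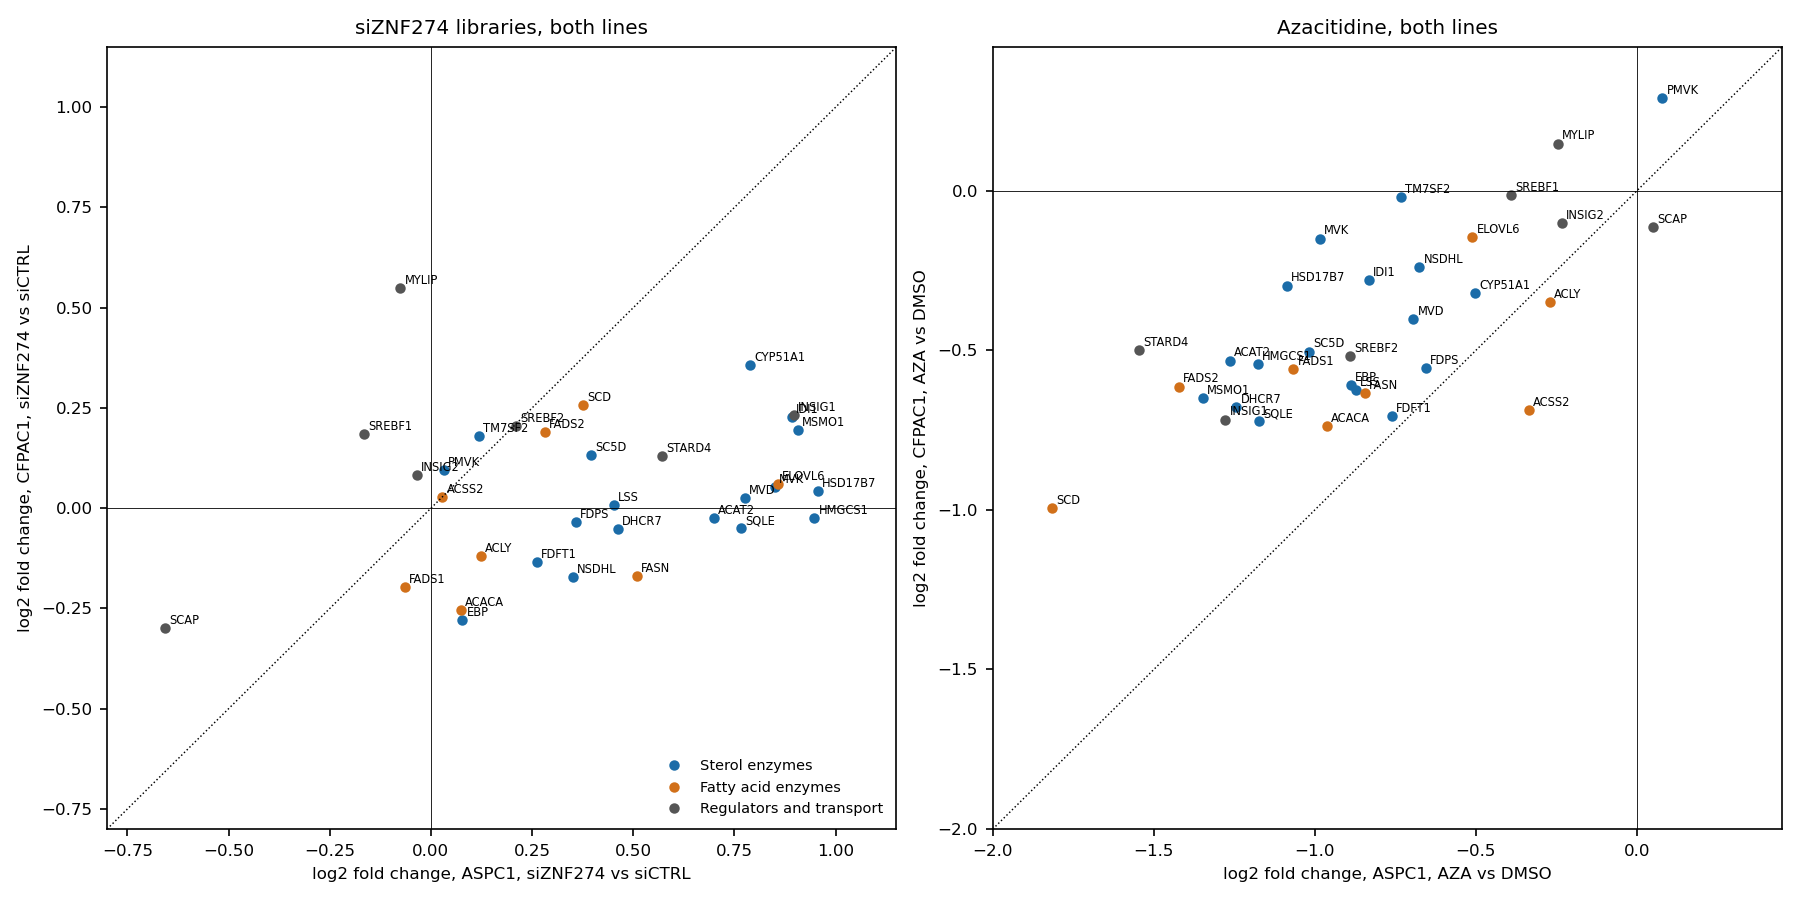
Log2 fold change of each of the 33 genes in ASPC1 (horizontal axis) and in CFPAC1 (vertical axis), for libraries labelled siZNF274 against siCTRL on the left and for azacitidine against DMSO on the right; points are coloured by branch and the dotted line marks equal change. On the left most sterol enzymes lie to the right of 0 but near 0 on the vertical axis, as HMGCS1 does at 0.95 and -0.025; on the right most genes are below 0 in both lines, with SCD at -1.82 and -0.99.

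The siCTRL and DMSO groups differ in transfection and in vehicle, which cannot be told apart, but their levels set the base from which the siZNF274-labelled libraries were read. In CFPAC1 the siCTRL libraries already stood above DMSO: 22 of 33 members were higher and 1, INSIG2, was lower, where edgeR called 7.3% of all genes higher and 8.22% lower, 15.5% in either direction. This took in 13 sterol enzymes, 7 fatty acid enzymes and 2 regulators, with medians of 0.27, 0.35 and 0.030. Of these rises 4 lost their calls without single libraries: SC5D without siCTRL replicate 1 or 3 or DMSO replicate 2 or 3 (edgeR adjusted p 0.0855 to 0.133), ELOVL6 without siCTRL replicate 1 or DMSO replicate 1 or 2 (edgeR adjusted p 0.0526 to 0.0973), HSD17B7 without siCTRL replicate 3 or DMSO replicate 2 (edgeR adjusted p 0.0595 to 0.0616) and NSDHL without siCTRL replicate 2 (edgeR adjusted p = 0.0522). With the compared groups alone the NSDHL, SC5D and ELOVL6 calls also ended (edgeR adjusted p = 0.0669, 0.0820 and 0.0684 in that order). HMGCS1 had 327, 338 and 371 CPM in CFPAC1 siCTRL libraries, against 195, 193 and 209 CPM in DMSO, a log2 difference of 0.79 ± 0.058 (SE; edgeR adjusted p = 2.02e-07). In ASPC1, siCTRL against DMSO gave 5 members higher and 5 lower, where 15.9% of all genes were called higher and 14.2% lower (30.1% in all), so that the 10 of 33 called are near the background. Of the sterol enzymes none was called higher and IDI1, NSDHL and HSD17B7 fell, while of the fatty acid enzymes SCD (0.53), ACSS2 (0.25) and ACACA (0.17) rose. Of the regulators SREBF1 (0.40) and SREBF2 rose, and INSIG2 and MYLIP fell. HMGCS1 had 159, 159.9 and 139 CPM in ASPC1 siCTRL libraries and 155, 139.7 and 152 CPM in DMSO. Set against DMSO, which the preceding comparisons share, the libraries labelled siZNF274 had 24 members higher and 3 lower in ASPC1, where 23.9% of all genes were called higher and 25% lower (48.9% in all), and likewise 24 higher and 3 lower in CFPAC1, where 15.9% were called higher and 18.2% lower (34% in all). On that scale HMGCS1 was higher by 0.99 in ASPC1 and by 0.77 in CFPAC1, and INSIG1 by 1.05 and 0.98. The SREBF1 call on that scale ended in ASPC1 without DMSO replicate 1 (edgeR adjusted p = 0.0665), and the FASN call in CFPAC1 without DMSO replicate 1 (edgeR adjusted p = 0.0527). ACACA's rise in ASPC1 siCTRL libraries lost its call without siCTRL replicate 1 or 2 or DMSO replicate 2 or 3 (edgeR adjusted p 0.0884 to 0.158), IDI1's fall without siCTRL replicate 2 or 3 or DMSO replicate 1 or 3 (edgeR adjusted p 0.0545 to 0.0746), and HSD17B7's fall without siCTRL replicate 3 or DMSO replicate 1 (edgeR adjusted p 0.0644 to 0.0740). The INSIG2 fall ended without siCTRL replicate 2 or any DMSO replicate (edgeR adjusted p 0.0670 to 0.166), and the MYLIP fall without siCTRL replicate 1 or 2 or DMSO replicate 2 or 3 (edgeR adjusted p 0.0752 to 0.150). The count of falls was 2 without DMSO replicate 1, and it was 3 without siCTRL replicate 3, DMSO replicate 2 or DMSO replicate 3 and with the compared groups alone. With no filter on low counts 8 members were higher. Without siCTRL replicate 1 a sterol enzyme, CYP51A1, was called higher, at a log2 difference of 0.34 (edgeR adjusted p = 0.0244), against 0.17 with all libraries.

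**Figure D3:**
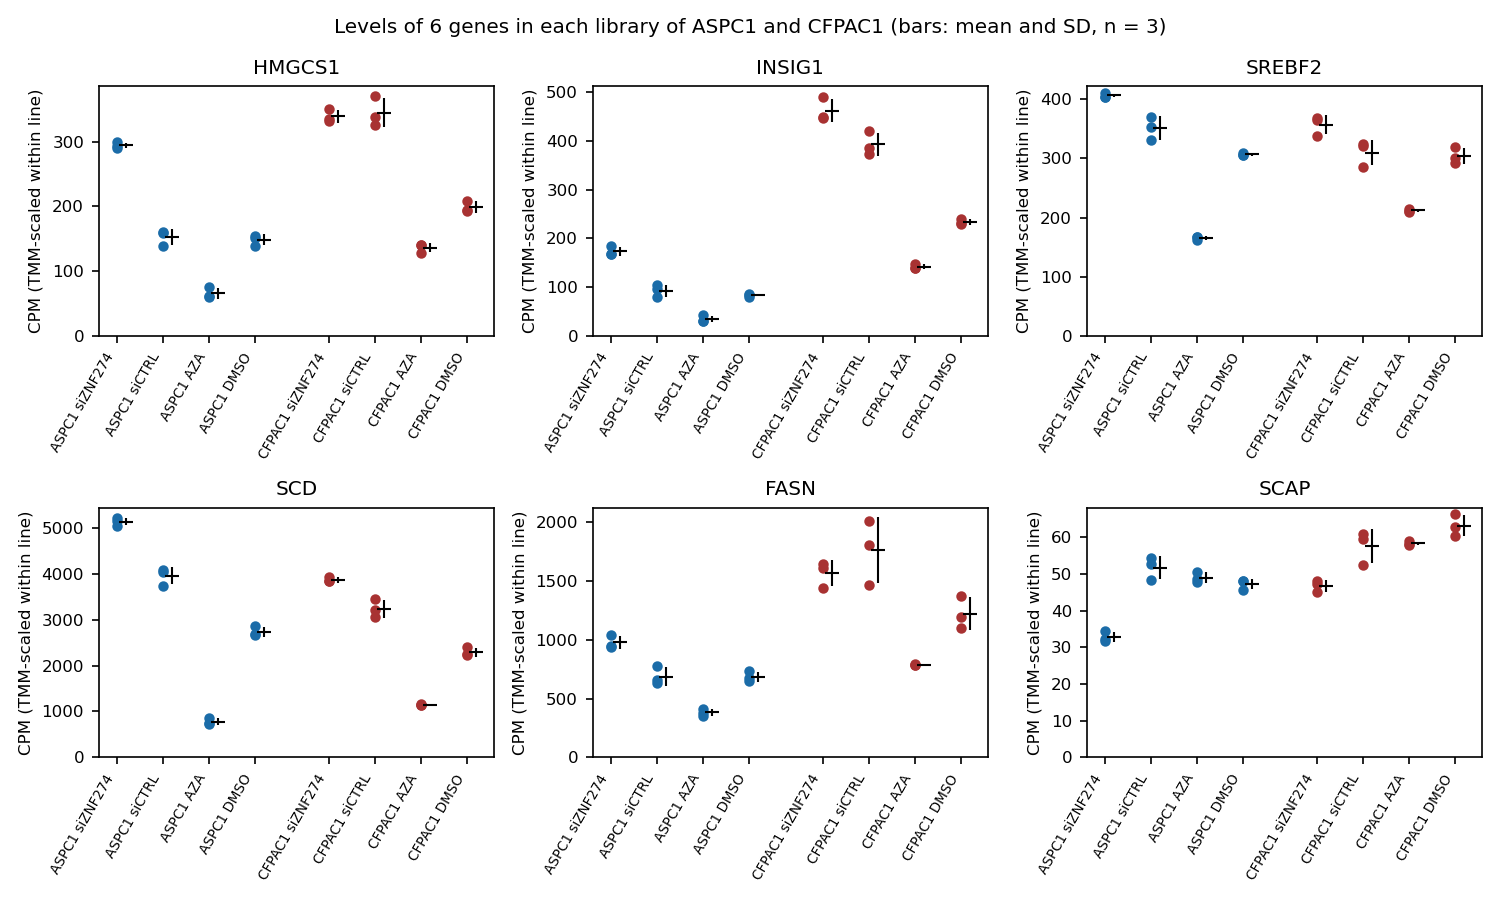
CPM after TMM scaling within each line (vertical axis, from 0) of HMGCS1, INSIG1, SREBF2, SCD, FASN and SCAP in the libraries of the 8 ASPC1 and CFPAC1 groups; points are libraries and bars show the mean and SD of 3. In ASPC1 the siZNF274-labelled libraries of HMGCS1 lie at 291, 299 and 294 CPM, above siCTRL, while azacitidine libraries of both lines lie below their DMSO libraries in all panels but SCAP.

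Azacitidine in ASPC1 was compared with DMSO, and both branches fell together. Of 18 sterol enzymes 17 fell, of 8 fatty acid enzymes all 8 fell, and of 7 regulators 6 fell, while no member rose. The medians were -0.88 in the sterol branch, -0.90 in the fatty acid branch and -0.39 among regulators, against -0.0028 over all genes. The 31 members that fell are to be read against 18.6% of 16186 genes called lower, 17.2% called higher and 35.8% called in either direction. PMVK (0.079; edgeR adjusted p = 0.655) and SCAP received no call.

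MSMO1 (ENSG00000052802.13, chromosome 4, 165327667 to 165343164) had the largest fall among the sterol enzymes, with 38.5, 46.8 and 38.7 CPM in ASPC1 azacitidine libraries, against 113, 97.6 and 105 CPM in DMSO, a log2 difference of -1.35 ± 0.091 (SE; edgeR adjusted p = 1.65e-08). HMGCS1 had 61.7, 75.1 and 60.6 CPM with azacitidine and 155, 139.7 and 152 CPM with DMSO, a log2 difference of -1.18 ± 0.075 (SE; edgeR adjusted p = 9.82e-09). In both genes all 3 azacitidine libraries were far below all 3 DMSO libraries. ACAT2 (-1.26), SQLE (-1.17), DHCR7, the reductase of the last steps of the pathway (-1.24), and HSD17B7 (-1.09) followed, and the smallest called fall was that of CYP51A1, the lanosterol demethylase (-0.50), which lost its call without azacitidine replicate 1 or DMSO replicate 3 (edgeR adjusted p 0.0505 to 0.0608). SCD fell most of all 33 genes, with 725, 859 and 746 CPM in azacitidine libraries, against 2860.1, 2662 and 2679.6 CPM in DMSO (log2 difference -1.82 ± 0.060 (SE; edgeR adjusted p = 7.24e-12)). FASN had 351, 414 and 381 CPM with azacitidine, against 649.6, 676 and 733 CPM with DMSO, a log2 difference of -0.84 ± 0.078 (SE; edgeR adjusted p = 4.84e-07). The fatty acid genes were again uneven: FADS2 (-1.42), FADS1 (-1.07) and ACACA (-0.96) fell further than ELOVL6 (-0.51), ACSS2 (-0.34) and ACLY (-0.27).

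STARD4 (ENSG00000164211.13, chromosome 5, 111496033 to 111512590) fell most among the regulators of ASPC1, with 16.02, 21.2 and 16.1 CPM in azacitidine libraries, against 54.9, 45.9 and 54.8 CPM in DMSO, a log2 difference of -1.55 ± 0.093 (SE; edgeR adjusted p = 4.67e-09). INSIG1 had 30.9, 42.3 and 30.6 CPM with azacitidine and 84.4, 80.8 and 86.7 CPM with DMSO (log2 difference -1.28 ± 0.11 (SE; edgeR adjusted p = 2.12e-07)). SREBF2 had 162, 168 and 166 CPM with azacitidine and 305, 309 and 306 CPM with DMSO (log2 difference -0.89 ± 0.045 (SE; edgeR adjusted p = 6.11e-10)). The groups of these 3 genes were tight and did not overlap. SREBF1 had 218, 228 and 229 CPM with azacitidine and 270.4, 302 and 312 CPM with DMSO, a smaller fall of -0.39 ± 0.072 (SE; edgeR adjusted p = 4.90e-04) on the log2 scale, also without overlap. SCAP had 48.5, 47.7 and 50.6 CPM with azacitidine and 45.6, 48.01 and 48.2 CPM with DMSO, overlapping groups with a log2 difference of 0.051 ± 0.056 (SE; edgeR adjusted p = 0.518). Called falls of small size were those of MYLIP (-0.25) and INSIG2 (-0.23), and the INSIG2 call ended without azacitidine replicate 2 (edgeR adjusted p = 0.0724). Of the 5 ductal markers 4 were lower and KRT7 was higher with azacitidine, and their sum was 9099.8 to 9382 CPM with azacitidine and 13284 to 14895 CPM with DMSO. Of the endothelial markers VWF and CLDN5 were called higher and EMCN and CDH5 were at or near 0, with a sum of 3.49 to 3.95 CPM with azacitidine and 0.435 to 0.591 CPM with DMSO. The leukocyte markers CD14 and CD68, which were the 2 of 5 that could be tested, were both called higher, with a leukocyte sum of 2.03 to 2.22 CPM with azacitidine and 1.12 to 1.63 CPM with DMSO. Of the fibroblast markers PDGFRB was called higher, while their sum overlapped, at 97.00 to 107 CPM with azacitidine and 102 to 113 CPM with DMSO. The part of these markers in the result was not tested.

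In CFPAC1 azacitidine gave falls in the same branches that were smaller. Of 18 sterol enzymes 14 fell, of 8 fatty acid enzymes 7 fell and of 7 regulators 3 fell, and none rose. The medians were -0.52 for sterol enzymes, -0.62 for fatty acid enzymes and -0.11 for regulators, against 0.0052 over all genes. The count of 24 falls stands beside 13.5% of 18103 genes called lower, 12.2% called higher and 25.7% called in either direction. Upper quartile scaling turned the split over all genes to 2940 higher and 1914 lower, against 2207 higher and 2445 lower with TMM, and called 23 members lower and 1, PMVK, higher. SQLE (-0.72 on the log2 scale; edgeR adjusted p = 1.29e-07) had the largest fall of the sterol branch, with 102, 97.9 and 93.95 CPM in azacitidine libraries, against 168, 162 and 155 CPM in DMSO. HMGCS1 had 140.3, 141 and 129 CPM with azacitidine and 195, 193 and 209 CPM with DMSO (log2 difference -0.54 ± 0.059 (SE; edgeR adjusted p = 6.49e-06)). Neither gene had overlapping groups. No call was made for PMVK (0.29; edgeR adjusted p = 0.0614), MVK (-0.15; edgeR adjusted p = 0.0605), CYP51A1 (-0.32; edgeR adjusted p = 0.106) or TM7SF2 (-0.021; edgeR adjusted p = 0.827). PMVK was called higher without DMSO replicate 3 (edgeR adjusted p = 0.00403), under upper quartile scaling (edgeR adjusted p = 0.0350) and with no filter on low counts (edgeR adjusted p = 0.00548). CYP51A1 was called lower with no filter on low counts (edgeR adjusted p = 0.0234) and with the compared groups alone (edgeR adjusted p = 0.0398). The HSD17B7 fall (-0.30) lost its call without any azacitidine replicate or DMSO replicate 1 or 3 (edgeR adjusted p 0.0817 to 0.142).

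SCD was again the gene that fell furthest in CFPAC1, with 1145, 1167 and 1142 CPM in azacitidine libraries, against 2256, 2402 and 2221 CPM in DMSO (log2 difference -0.99 ± 0.053 (SE; edgeR adjusted p = 6.35e-09)). FASN had 786, 782 and 791 CPM with azacitidine, against 1097, 1372 and 1193 CPM with DMSO, a log2 difference of -0.63 ± 0.097 (SE; edgeR adjusted p = 1.69e-04). ACACA (-0.74), ACSS2 (-0.69), FADS2 (-0.61), FADS1 (-0.56) and ACLY (-0.35) also fell. ELOVL6 received no call (-0.15, edgeR adjusted p = 0.114), but was called lower with the compared groups alone (edgeR adjusted p = 0.0491). INSIG1 had 139.8, 148 and 139 CPM with azacitidine and 241, 229.9 and 231 CPM with DMSO, a log2 difference of -0.72 ± 0.057 (SE; edgeR adjusted p = 2.72e-07). SREBF2 had 211, 215 and 210.0 CPM with azacitidine and 299.9, 319 and 292 CPM with DMSO, a log2 difference of -0.52 ± 0.058 (SE; edgeR adjusted p = 9.48e-06). Azacitidine and DMSO libraries of INSIG1 and of SREBF2 did not overlap. SREBF1 had 142, 147 and 147 CPM with azacitidine and 140.2, 149 and 151 CPM with DMSO. Its groups overlapped, and its log2 difference was -0.014 ± 0.061 (SE; edgeR adjusted p = 0.898). STARD4 fell (-0.50), while SCAP (-0.11), INSIG2 (-0.10) and MYLIP (0.15) received no call. Of the 5 ductal markers only KRT7 was called lower in CFPAC1, and their sum was 8059 to 8365 CPM with azacitidine and 8698 to 9153 CPM with DMSO, without overlap. Of the fibroblast markers COL1A1 was called lower and PDGFRB higher, with a sum of 92.5 to 97.7 CPM with azacitidine and 146 to 158 CPM with DMSO. The leukocyte marker CD14 was called higher, with a leukocyte sum of 5.38 to 5.99 CPM with azacitidine and 2.53 to 2.92 CPM with DMSO, and so was the hepatocyte marker APOA1, with a hepatocyte sum of 0.343 to 0.629 CPM with azacitidine and 0.0530 to 0.231 CPM with DMSO. The endothelial marker PECAM1 was called higher, and the endothelial sum was 5.10 to 5.22 CPM with azacitidine and 1.17 to 1.44 CPM with DMSO. The part of these markers in the result was not tested.

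The azacitidine difference was lower in ASPC1 than in CFPAC1 for 21 members and higher for 1, where edgeR called 8.66% of 19094 genes lower and 8.65% higher, 17.3% in either direction. These were 12 sterol enzymes, 4 fatty acid enzymes and 5 regulators on the lower side. All 24 members that fell in CFPAC1 were among the 31 that fell in ASPC1, and for 16 of them the ASPC1 fall was larger by the test of the difference. The ASPC1 effect minus the CFPAC1 effect was -1.05 ± 0.11 (SE; edgeR adjusted p = 8.73e-08) for STARD4, -0.83 ± 0.081 (SE; edgeR adjusted p = 1.58e-08) for SCD, -0.82 ± 0.094 (SE; edgeR adjusted p = 3.00e-07) for FADS2, -0.84 ± 0.12 (SE; edgeR adjusted p = 7.86e-06) for MVK and -0.71 ± 0.11 (SE; edgeR adjusted p = 4.29e-05) for MSMO1. For FDFT1 (-0.064 ± 0.092, SE; edgeR adjusted p = 0.731), FASN (-0.22 ± 0.13, SE; edgeR adjusted p = 0.309) and ACLY (0.071 ± 0.071, SE; edgeR adjusted p = 0.579) no difference between the lines was called. ACSS2 was the member with the smaller fall in ASPC1 (0.34 ± 0.12 (SE; edgeR adjusted p = 0.0492)), a call that ended without 1 of 11 of the 12 libraries, all but CFPAC1 DMSO replicate 3 (edgeR adjusted p 0.0517 to 0.146), and under upper quartile scaling (edgeR adjusted p = 0.0630). The EBP difference (-0.29) lost its call without 1 of 8 of the 12, all but ASPC1 azacitidine replicate 2, ASPC1 DMSO replicate 3, CFPAC1 azacitidine replicate 3 and CFPAC1 DMSO replicate 1 (edgeR adjusted p 0.0541 to 0.179).

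In ASPC1 the libraries labelled siZNF274 and the azacitidine libraries lay on opposite sides of their own controls for most members. All 22 members that rose in the siZNF274-labelled libraries fell with azacitidine, but so did 31 of all 33 members, so this overlap was nearly given. The difference between the effects was called for each of the 22, which opposite calls make all but certain. The share of all genes with such opposite calls was not counted. In the test of the siZNF274-labelled effect minus the azacitidine effect, 28 members were higher and 1, SCAP, was lower, where 15.8% of all genes were higher, 16.7% lower and 32.5% were called. The difference was 2.25 ± 0.13 (SE; edgeR adjusted p = 5.67e-09) for MSMO1, 2.19 ± 0.084 (SE; edgeR adjusted p = 9.58e-11) for SCD and -0.71 ± 0.080 (SE; edgeR adjusted p = 6.86e-06) for SCAP. In CFPAC1 24 members were higher and none lower in the same test, where 11.3% of all genes were higher, 10.7% lower and 22% were called, with 1.25 ± 0.074 (SE; edgeR adjusted p = 2.13e-08) for SCD and 0.95 ± 0.079 (SE; edgeR adjusted p = 7.46e-07) for INSIG1. Of the 24, MVD lost its call without 1 of 7 of the 12 libraries (any azacitidine replicate, DMSO replicate 2 or 3, or siZNF274 replicate 2 or 3; edgeR adjusted p 0.0604 to 0.105), FASN without azacitidine replicate 1, DMSO replicate 2 or siZNF274 replicate 2 or 3 (edgeR adjusted p 0.0533 to 0.0701), ACLY without azacitidine replicate 1 or 3 (edgeR adjusted p 0.0573 to 0.0587) and CYP51A1 without replicate 3 of azacitidine or DMSO (edgeR adjusted p 0.0516 to 0.0573). SCAP was called lower there without siCTRL replicate 3 (edgeR adjusted p = 0.0320). Taken apart, the siZNF274-labelled effect there was 0.26 for SCD and 0.23 for INSIG1, and the azacitidine effect was -0.99 for SCD and -0.72 for INSIG1.

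Overexpression of ZNF274 in Panc3.27 was compared with empty vector and left most members without a call. Of 18 sterol enzymes 2 rose and 6 fell, of 8 fatty acid enzymes 1 rose and 2 fell, and of 7 regulators 2 fell. The medians were -0.10, -0.043 and -0.0042, against 0.013 over all genes. The 13 calls of 33 are near the background: edgeR called 19.8% of 17350 genes higher and 17.1% lower, 36.9% in either direction. HMGCS1 had 228, 227 and 229.5 CPM with overexpression and 237, 235 and 239.7 CPM with empty vector (log2 difference -0.058 ± 0.041 (SE; edgeR adjusted p = 0.290)). NSDHL had the largest change of the sterol branch, with 26.9, 27.5 and 27.3 CPM in overexpressing libraries, against 34.01, 36.2 and 34.4 CPM with empty vector, a log2 difference of -0.36 ± 0.054 (SE; edgeR adjusted p = 1.66e-04). MVD, the mevalonate diphosphate decarboxylase, rose against its branch, with 31.02, 29.9 and 31.3 CPM with overexpression and 24.5, 25.7 and 28.3 CPM with empty vector (log2 difference 0.23 ± 0.063 (SE; edgeR adjusted p = 0.0106)). SQLE rose too, with 149, 147 and 146 CPM with overexpression and 139, 135 and 130.0 CPM with empty vector (log2 difference 0.13 ± 0.043 (SE; edgeR adjusted p = 0.0279)). None of these 4 genes had overlapping groups, although the HMGCS1 difference was small and not called. The remaining falls were those of MVK (-0.29), SC5D, a sterol desaturase (-0.20), DHCR7 (-0.17), IDI1 (-0.16) and LSS, the lanosterol synthase (-0.16).

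ACSS2 rose most of all members in Panc3.27, with 79.6, 80.6 and 79.2 CPM with overexpression, against 58.7, 53.4 and 53.9 CPM with empty vector, a log2 difference of 0.53 ± 0.050 (SE; edgeR adjusted p = 2.21e-06). FASN had 1226, 1339 and 1277 CPM with overexpression and 1415, 1316 and 1453 CPM with empty vector (log2 difference -0.12 ± 0.056 (SE; edgeR adjusted p = 0.0985)). SCD had 1516, 1575 and 1455 CPM with overexpression and 1621, 1458 and 1508 CPM with empty vector (log2 difference -0.013 ± 0.056 (SE; edgeR adjusted p = 0.882)). ACSS2 was alone among these 3 in having groups that did not overlap, and FADS2 (-0.28) and ACLY (-0.25) fell. INSIG1 had 25.7, 26.9 and 27.2 CPM with overexpression and 30.1, 30.9 and 30.04 CPM with empty vector (log2 difference -0.19 ± 0.055 (SE; edgeR adjusted p = 0.0149)). SREBF1 had 424, 424 and 453 CPM with overexpression and 402, 415 and 439 CPM with empty vector (log2 difference 0.051 ± 0.050 (SE; edgeR adjusted p = 0.459)). SREBF2 had 318, 327 and 317 CPM with overexpression and 307, 285 and 296 CPM with empty vector (log2 difference 0.11 ± 0.045 (SE; edgeR adjusted p = 0.0648)). Of these, INSIG1 and SREBF2 had no overlap between groups, but only the INSIG1 difference was called, and STARD4 fell as well (-0.18). Calls that ended without single libraries were SQLE (CTRL replicate 2 or 3 or any OE replicate; edgeR adjusted p 0.0767 to 0.214), MVD (CTRL replicate 1 or 2 or OE replicate 1; edgeR adjusted p 0.0549 to 0.0623), IDI1 (CTRL replicate 3 or OE replicate 1 or 2; edgeR adjusted p 0.0864 to 0.143), LSS (CTRL replicate 3 or OE replicate 1; edgeR adjusted p 0.0606 to 0.0852), and SC5D (edgeR adjusted p 0.0559) and STARD4 (edgeR adjusted p 0.0609) without OE replicate 3. Without CTRL replicate 2 or OE replicate 1, 1 member was higher in place of 3. The SQLE call also ended under DESeq2 (DESeq2 adjusted p = 0.0770), under RLE scaling (edgeR adjusted p = 0.0625) and with no filter on low counts (edgeR adjusted p = 0.0564). FASN was called lower under DESeq2 (DESeq2 adjusted p = 0.0280), and SREBF2 higher under upper quartile scaling (edgeR adjusted p = 0.0487). The endothelial marker VWF was also higher, and the endothelial sum, of which VWF made up nearly all, was 54.6 to 58.3 CPM with overexpression and 30.3 to 30.8 CPM with empty vector. The fibroblast markers COL1A1 and COL3A1 were called lower, with a fibroblast sum of 55.3 to 58.2 CPM with overexpression and 75.97 to 77.4 CPM with empty vector. Of the ductal markers KRT8 and KRT18 were called lower and KRT7 higher, with a sum of 4376 to 4443 CPM with overexpression and 4671 to 4928 CPM with empty vector. The part of these markers in the result was not tested.

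The branches can be set side by side as a mean log2 level of their members in each library, relative to the mean over the libraries of the line. In ASPC1 the sterol level was 0.65, 0.59 and 0.56 in libraries labelled siZNF274, against 0.015, 0.15 and -0.045 in siCTRL, and the fatty acid level was 0.54, 0.52 and 0.48, against 0.23, 0.32 and 0.16 in siCTRL. With azacitidine in ASPC1 the sterol level was -0.85, -0.63 and -0.79, against 0.12, 0.070 and 0.16 in DMSO, and the fatty acid level was -0.89, -0.70 and -0.88, against 0.090, 0.041 and 0.090 in DMSO. The siZNF274-labelled and siCTRL libraries were thus further apart in the sterol branch than in the fatty acid branch, while azacitidine and DMSO were about as far apart in both. In CFPAC1 the sterol level was 0.27, 0.29 and 0.27 in libraries labelled siZNF274 and 0.17, 0.26 and 0.32 in siCTRL, and the fatty acid level was 0.29, 0.32 and 0.35 in libraries labelled siZNF274 and 0.27, 0.35 and 0.42 in siCTRL, with overlap in each. With azacitidine in CFPAC1 the sterol level was -0.45, -0.43 and -0.53, against -0.073, -0.084 and -0.0071 in DMSO, and the fatty acid level was -0.63, -0.60 and -0.65, against -0.069, 0.011 and -0.060 in DMSO. No test was made of these levels, which average a list of genes chosen with earlier results known.

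**Figure D4:**
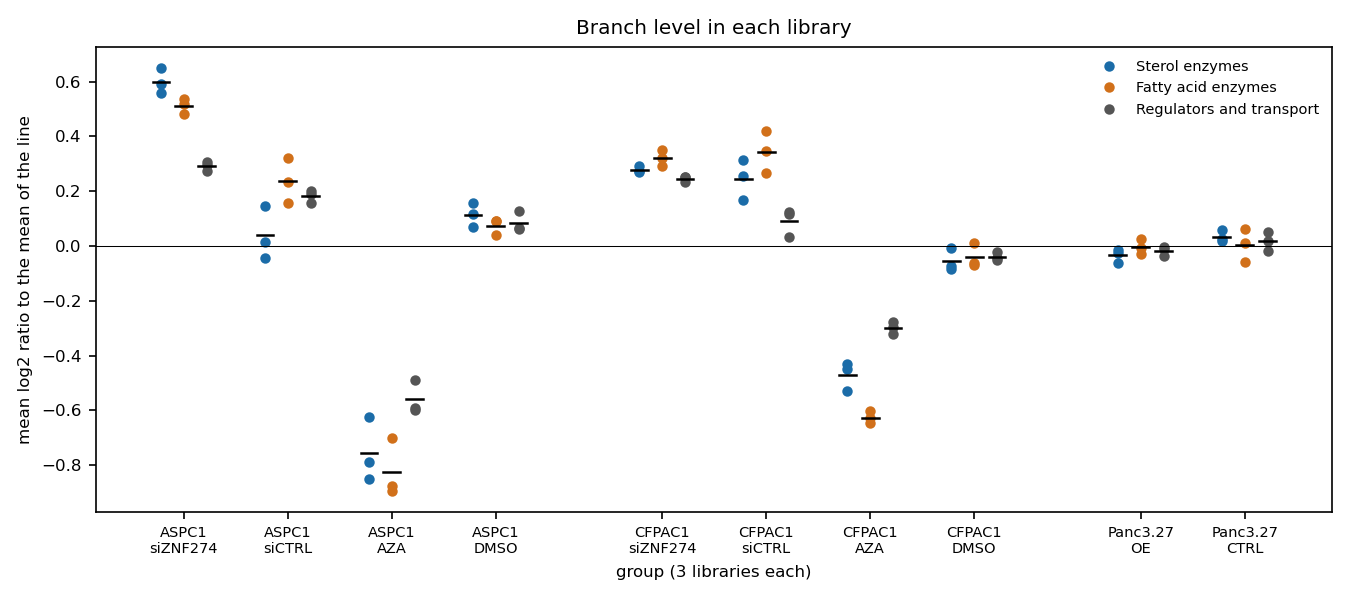
Mean over the members of each branch of log2(CPM + 0.5), relative to its mean over the libraries of the line (vertical axis), in every library of the 10 groups (horizontal axis); points are libraries, short lines are means of 3, and colours are the branches. Sterol levels of the ASPC1 siZNF274-labelled libraries lie at 0.65, 0.59 and 0.56 and those of the azacitidine libraries at -0.85, -0.63 and -0.79; Panc3.27 points lie near 0 in both groups.

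The untreated state of these genes differed between the lines. With DMSO, 11 members were higher and 18 lower in ASPC1 than in CFPAC1, where edgeR called 36.3% of 19094 genes higher and 41% lower, 77.4% in either direction. FADS1 stood out, with 14.2, 12.2 and 14.9 CPM in ASPC1, against 432, 432 and 449 CPM in CFPAC1 (scaled over all 30 libraries), a log2 difference of -4.98 ± 0.083 (SE; edgeR adjusted p = 6.61e-27). Its neighbour FADS2 differed by -1.77 and INSIG1 by -1.36, while ACSS2 (1.13) and SREBF1 (1.12) were higher in ASPC1. FADS1 lies within the span given for FADS2 in the count table, so the counts of this pair are uncertain. RefSeq also lists near copies as pseudogenes of FDPS (10), CYP51A1 (3), IDI1 (3), HSD17B7 (2) and SCD (1). Sterol enzymes that overlap other genes in the table are ACAT2, HMGCS1, MVK, IDI1, FDPS, FDFT1, LSS, CYP51A1, TM7SF2, EBP and DHCR7. Other such members are ACLY, ACSS2, ACACA, SREBF1, SREBF2 and STARD4. No source used here gives the strand setting of the counting, so their counts may include shared reads.

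Genes around the pathway were followed through lists of their own, tested in the same fits. In these paragraphs the percentages in brackets after a count are the shares of all tested genes called higher and lower in that comparison, in that order. Of 8 genes of SREBP processing, 2 rose and 4 fell in the ASPC1 libraries labelled siZNF274 (21.5% and 24.2%), led by MBTPS2, the second protease that cuts SREBP precursors (-0.68), and RNF145, a ubiquitin ligase of the endoplasmic reticulum (0.58). RNF145 fell with azacitidine, by -1.01 in ASPC1, where none of the 8 rose and 2 fell (17.2% and 18.6%), and by -0.28 in CFPAC1, where it was the only change (12.2% and 13.5%). In the CFPAC1 siZNF274-labelled libraries 1 rose and 2 fell (11.6% and 13.2%), the falls being those of UBE2G2 (-0.49) and MBTPS2 (-0.22), and with overexpression UBE2G2 fell (-0.20). ERLIN1 was the other fall with azacitidine in ASPC1 (-0.15).

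Of 10 sterol handling genes, 6 rose and none fell in the ASPC1 libraries labelled siZNF274 (21.5% and 24.2%), with PCYT2 (0.40) and NPC2, a lysosomal cholesterol carrier (0.38), changing most. With azacitidine 1 rose and 7 fell in ASPC1 (17.2% and 18.6%), led by ERG28, a scaffold of sterol demethylation (-1.07), and TMEM97 (-0.87), and 2 rose and 7 fell in CFPAC1 (12.2% and 13.5%), led by LPIN1 (-0.60) and RDH11 (-0.42). In the CFPAC1 siZNF274-labelled libraries 1 rose and 2 fell (11.6% and 13.2%), with LPIN1 at -0.36 and NPC1, the lysosomal cholesterol exporter, at 0.29. With overexpression 2 rose and 6 fell (19.8% and 17.1%), the rises being those of NPC1 (0.39) and NPC2 (0.24).

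LXR receptors respond to oxysterols and drive cholesterol export. Of their 6 listed genes 3 rose and 3 fell in the ASPC1 libraries labelled siZNF274 (21.5% and 24.2%), where the exporter gene ABCG1 fell (-1.44) and SMPDL3A rose (0.80). With azacitidine in ASPC1 5 rose and 1 fell (17.2% and 18.6%), the exporter gene ABCA1 rising by 0.96 and LPCAT3 falling (-0.37). In CFPAC1 azacitidine libraries 1 rose and 1 fell (12.2% and 13.5%), ABCG1 (1.17) and LPCAT3 (-0.25), and in the siZNF274-labelled libraries 2 rose and none fell (11.6% and 13.2%), ABCA1 (0.50) and NR1H2 (0.34). With overexpression 2 rose and 1 fell (19.8% and 17.1%), the rises being those of ABCG1 (1.64) and ABCA1 (0.55).

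Of 18 further genes of fatty acid synthesis and activation that could be tested out of 19, 2 rose and 9 fell in the ASPC1 libraries labelled siZNF274 (21.5% and 24.2%), among them ELOVL7 (-0.90) and GPAM, an acyltransferase of triglyceride synthesis (0.52). In CFPAC1 none rose and 5 fell (11.6% and 13.2%), led by the desaturase SCD5 (-0.88) and the acyl-CoA synthetase ACSL1 (-0.58). With azacitidine 1 rose and 14 fell in ASPC1 (17.2% and 18.6%), led by ACSL1 (-1.61) and MLXIPL, a carbohydrate-responsive transcription factor (-1.22), and 2 rose and 7 fell in CFPAC1 (12.2% and 13.5%), led by ELOVL5 (-0.61) and the malic enzyme ME1 (-0.42). With overexpression 1 rose and 5 fell (19.8% and 17.1%), led by GPAM (-0.36) and, upwards, ACSL1 (0.33).

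Of 12 genes of fatty acid oxidation and its regulation, 11 could be tested in ASPC1 and CFPAC1 and 10 in Panc3.27. In the ASPC1 siZNF274-labelled libraries 4 rose and 4 fell (21.5% and 24.2%), led by ANGPTL4 (1.41) and the lipid droplet gene PLIN2 (0.55), and 4 rose and 1 fell in those of CFPAC1 (11.6% and 13.2%), led by PDK4 (1.26) and ANGPTL4 (1.13). Azacitidine gave 3 higher and 6 lower in ASPC1 (17.2% and 18.6%), with ANGPTL4 at 1.13 and PLIN2 at 0.51, and in CFPAC1 none rose and 1 fell (12.2% and 13.5%), PDK4 (-0.45). With overexpression 2 rose and none fell (19.8% and 17.1%): CPT1A, the entry enzyme of mitochondrial oxidation (0.70), and PPARA (0.26).

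H3K9me3 peaks, called in ASPC1, were rare over the members. In the authors' deposited table of 63955 peaks, 5 of 33 members (15.2%) had a peak over the gene body, against 31.0% of 19955 protein-coding genes, and none had 50% or more of its body covered, against 3.66%. A peak of 997 bases lay in an intron of HSD17B7 (chr1:162807562-162808558), and in the authors' deposited table it is listed for shZNF274 only. ELOVL6 had an intronic peak of 5921 bases (chr4:110076446-110082366) and DHCR7 a peak of 3441 bases at its transcript end (chr11:71426481-71429921), both listed for shZNF274 and shCTRL in the authors' deposited table. FADS1 and FADS2 shared a peak of 592 bases (chr11:61814354-61814945) inside both gene bodies. It is labelled promoter-TSS and listed for shZNF274 only in the authors' deposited table. Of the 2500 bases before either counted span 0 were covered, but the RefSeq starts matched here lie inside those spans. They are 12315 bases from the counted start for FADS1 and 23223 and 23424 bases for FADS2. The peak lies upstream of the FADS2 promoter window at chr11:61815953-61816202, within 2500 bases of it. That table marks none of these peaks as changed between the hairpins. The other 28 members had no peak over their bodies. No source used here says whether replicates were pooled for peak calling, and replicate spread cannot be read from this list.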

How the data were processed

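RNA-seq counts per gene were used as deposited by the authors, unnormalised whole numbers in 1 table of 30 libraries. Per the labels' protocols, libraries were made from 500 ng of total RNA with a stranded, ribosomal RNA-depleting kit, and the submitters' processing notes name STAR 2.7.10b and build hg38; no source used here gives the strand setting of the counting. The H3K9me3 peak list holds a score per peak as the authors deposited it, which was not used beyond peak position and labels. Of the 18 CUT&RUN samples, the ZNF274 and IgG ones were not analysed here.

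Each line was fitted by itself (R 4.3.3, edgeR 4.0.16): filterByExpr by group, TMM scaling, glmQLFit and glmQLFTest on group means, Benjamini-Hochberg adjustment over all tested genes and a threshold of 0.05. Differences between lines came from 1 fit of 24 libraries. The test was tried on simulated counts. Libraries of a group were compared in 30 pairs and none were identical. CPM are counts per 1e+06 after TMM scaling; branch levels used log2(CPM + 0.5). Promoters came from RefSeq.

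Values in every library are given for HMGCS1, INSIG1, SREBF1, SREBF2, FASN and SCD, for the called member of each branch with the largest change in each of the 5 treatment comparisons, and for called members against the majority of their branch; from the other lists the 2 called genes with the largest change are named. Members, branches and lists were chosen with earlier results of these data known, so counts are set beside the share of all genes called, and no set test was run. Replicate numbers were checked as pairs: the correlation of deviations of same-numbered libraries was over 0.1 in every pair of no comparison, so the numbers were not used as a block. Between ASPC1 siZNF274 and siCTRL each library still correlated best with the same number, so the main fit may leave out a weak pairing there. Alternatives were DESeq2 1.42.0, RLE and upper quartile scaling, no filter, the block, the compared groups alone, and leaving out each library.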

Additional observations from a re-analysis of the deposited data

Results flagged for a closer look

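For 45 results the effect of a treatment differed between ASPC1 and CFPAC1 by a test of the difference itself (edgeR, adjusted p under 0.05 over 19094 genes). Values are the ASPC1 effect minus the CFPAC1 effect on the log2 scale.

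For the libraries labelled siZNF274 against siCTRL, the effect was higher in ASPC1 for 14 sterol enzymes: HMGCS1 (0.95), HSD17B7 (0.90), SQLE (0.80), MVK (0.78), MVD (0.73), ACAT2 (0.71), MSMO1 (0.69), IDI1 (0.65), NSDHL (0.51), DHCR7 (0.50), LSS (0.43), FDFT1 (0.38), FDPS (0.38) and EBP (0.34). It was higher for 4 fatty acid enzymes, namely ELOVL6 (0.78), FASN (0.66), ACACA (0.31) and ACLY (0.23), and for the regulators INSIG1 (0.65) and STARD4 (0.42). It was lower for MYLIP (-0.64), SCAP (-0.38) and SREBF1 (-0.37). EBP is in this list although no rise was called in ASPC1: it fell in CFPAC1.

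For azacitidine against DMSO, the effect was lower in ASPC1 for 12 sterol enzymes: MVK (-0.84), HSD17B7 (-0.80), ACAT2 (-0.74), TM7SF2 (-0.72), MSMO1 (-0.71), HMGCS1 (-0.64), DHCR7 (-0.57), IDI1 (-0.56), SC5D (-0.52), SQLE (-0.46), NSDHL (-0.45) and EBP (-0.29). It was lower for 4 fatty acid enzymes, namely SCD (-0.83), FADS2 (-0.82), FADS1 (-0.52) and ELOVL6 (-0.37), and for the regulators STARD4 (-1.05), INSIG1 (-0.57), MYLIP (-0.40), SREBF1 (-0.39) and SREBF2 (-0.38). It was higher for ACSS2 (0.34).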

How the results depend on the processing

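Of 6138 values of single genes under alternative settings, 5911 kept their side of the threshold, 148 kept the direction but lost the call, and 79 gained one. None changed direction where either setting gave a call. For values without a call in both settings the direction was not compared. The 14 counts of called members stayed within 1.5 times the reported count under DESeq2, RLE and upper quartile scaling, no filter, the block and the compared groups alone. Leaving out single libraries gave 9 to 15 called members in the CFPAC1 siZNF274-labelled comparison. With the replicate block the counts were 25 and 15 for the libraries labelled siZNF274 in ASPC1 and CFPAC1, 31 and 24 for azacitidine and 13 for overexpression. Between ASPC1 siZNF274 and siCTRL, replicates 1, 2 and 3 each correlated best with the same number, though weakly (0.088, 0.065 and 0.144). In no other treatment comparison did all 3 do so, and the highest value was 0.28, for CFPAC1 siZNF274 and siCTRL replicate 1. Whether the libraries were paired is not known.

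Branch medians that moved by more than the replicate spread were mostly those of the regulators. Between the lines with DMSO, the fatty acid and regulator medians were -0.23 and 0.074 under DESeq2 and under RLE scaling, and -0.24 and 0.082 with the block, and under upper quartile scaling the sterol, fatty acid and regulator medians were -0.44, -0.27 and 0.032. Upper quartile scaling gave regulator medians of 0.017 for the ASPC1 siZNF274-labelled comparison, where the sign turned, -0.072 for azacitidine in CFPAC1 and 0.39 for CFPAC1 libraries labelled siZNF274 against DMSO, which was 0.38 with the compared groups alone. Over all genes it changed the split of calls for azacitidine in CFPAC1 to 2940 higher and 1914 lower, against 2207 higher and 2445 lower with TMM.

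Without single libraries, regulator medians ranged from -0.11 to 0.037 (libraries labelled siZNF274 against siCTRL), 0.096 to 0.19 (siCTRL against DMSO), 0.18 to 0.29 (siZNF274-labelled against DMSO) and 0.19 to 0.31 (siZNF274-labelled minus azacitidine effect) in ASPC1. In CFPAC1 the same 4 ranged from 0.12 to 0.24, -0.010 to 0.089, 0.33 to 0.40 and 0.36 to 0.47, and that of azacitidine from -0.14 to -0.11. In Panc3.27 the sterol, fatty acid and regulator medians ranged from -0.15 to -0.089, -0.11 to -0.031 and -0.066 to -0.018. The regulator median of the difference between lines ranged from -0.23 to -0.066, and with DMSO between lines the fatty acid and regulator medians ranged from -0.25 to -0.14 and from 0.083 to 0.13. Counting only H3K9me3 peaks listed for both hairpins left 2 members with a peak, DHCR7 and ELOVL6. The cause of these shifts was not tested. With 3 libraries a group, small differences such as those of CFPAC1 and Panc3.27 are at the limit of what the spread allows to be called.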
